A study of Mus musculus with 4 samples.

Results

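The genes described here are 10 genes of antigen presentation by major histocompatibility complex (MHC) class I, picked by name from the 27998 genes in the deposited tables: *H2-K1*, *H2-D1*, *B2m*, *Tap1*, *Tap2*, *Tapbp*, *Psmb8*, *Psmb9*, *Psmb10* and *Psme1*. All 10 were found and all 10 passed the filter on low counts in each comparison tested. They were measured by 10x 3′ single-cell RNA sequencing of T cells enriched from blood of C57BL/6 mice with subcutaneous MC-38 tumors, a mouse colorectal carcinoma line. Blood was taken on day 18 after tumor challenge, from mice that were 6 to 8 weeks old at the start. There were 4 libraries, 1 per treatment. The deposited record gives 4 mice for them and the study's methods do not give the number per library, so mouse, library and treatment cannot be told apart.

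All mice carried the tumor, the untreated mouse included. The anti-PD-L1 mouse received 150 µg of an antibody that blocks the checkpoint ligand PD-L1 on days 10, 13 and 17. The anti-OX40/CpG mouse received 150 µg of an agonist antibody to the costimulatory receptor OX40 with 25 µg of CpG, a ligand of Toll-like receptor 9, on day 7. The PDOX mouse received both regimens. The sample label of the third group names OX40 only, and CpG is taken from the study's methods.

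Nearly all nucleated cells display peptides of their own proteins on class I molecules, which CD8+ T cells read and which inhibit natural killer (NK) cells. Each molecule is a polymorphic heavy chain paired with β2-microglobulin. Proteasomes make the peptides, the TAP transporter carries them into the endoplasmic reticulum, and tapasin holds an empty class I molecule beside TAP until a peptide binds. Interferons raise transcription of the whole pathway and exchange the catalytic subunits of the proteasome for the immunoproteasome subunits. In T cells the pathway is active without stimulation, so the questions were how its level differs among blood cell types, within T cells and among the treatment libraries.

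The deposited tables held 862, 1451, 1583 and 1538 cells in the untreated library, the anti-PD-L1 library, the anti-OX40/CpG library and the PDOX library, with 2392650, 4969885, 4931178 and 4121932 unique molecular identifiers (UMIs). Values for the 4 libraries are given in this order throughout. Once genes of mitochondria, ribosomal proteins and hemoglobin had been set aside, 784, 1446, 1559 and 1510 cells had 200 or more genes. The libraries shared between 1 and 6 cell barcodes per pair. The untreated library stood apart in hemoglobin, with 7.99% of its UMIs against 0.344%, 1.51% and 1.70% in the others. Ribosomal genes took 38.0%, 41.4%, 43.1% and 34.6% of UMIs.

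Cells were assigned to 5 gates by marker UMIs. The CD8 T gate held 313, 636, 662 and 447 cells, and the CD4 T gate 98, 193, 262 and 299. The enriched samples also held a few other leukocytes: 14, 5, 31 and 15 cells in the NK gate, 31, 57, 7 and 36 in the B gate, and 8, 31, 10 and 35 in the monocyte gate. Profiles of fewer than 10 cells, which are the NK cells of the anti-PD-L1 library, the B cells of the anti-OX40/CpG library and the monocytes of the untreated library, were left out of the fits. *Lyz2*, a lysozyme gene of myeloid cells that no gate used, stood at 405, 263, 323 and 324 UMIs per 10000 in the monocyte gate and at most 2.90 in the T gates. *Cd74*, the invariant chain of class II presentation, stood at 344, 327, 210 and 342 in the B gate and at most 1.84 in the T gates. The markers of the CD3 complex are at 0 in the NK, B and monocyte gates by construction.

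All levels are UMIs per 10000 UMIs of the kept genes, from the summed cells of a gate. Intervals in brackets are 95% exact intervals and cover counting error only. Counts from the 3′ end depend on capture and mapping of each transcript, so levels are compared between cells for the same gene and not between genes. *H2-K1*, *H2-D1* and the *H2-Q* genes are near-identical paralogs, and how the authors' counting treated reads shared by them is not stated.

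The heavy chains and β2-microglobulin were abundant in every gate. *H2-K1*, which encodes the K heavy chain, stood at 27.0, 31.5, 28.2 and 31.4 in CD8+ T cells and at 29.7, 38.0, 35.4 and 40.3 in CD4+ T cells. In monocytes it stood at 18.1, 25.3, 14.2 and 25.5, and in B cells at 18.1, 21.5, 22.9 and 25.3. Each monocyte and B cell value lay below the values of both T gates in its own library. Means over libraries were 29.5 ± 2.30 (SD, n = 4) in the CD8 T gate, 35.8 ± 4.55 (n = 4) in the CD4 T gate, 31.0 ± 3.52 (n = 3) in NK cells, 21.6 ± 3.60 (n = 3) in B cells and 21.7 ± 6.45 (n = 3) in monocytes.

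*H2-D1*, the D heavy chain, was ordered differently. It stood at 30.1, 37.6, 33.6 and 45.0 in CD8+ T cells, at 39.7, 43.5, 45.4 and 57.9 in CD4+ T cells, and at 43.6, 51.0, 38.8 and 63.2 in monocytes. Monocytes were above both T gates in each library except anti-OX40/CpG, where they lay between them. The means were 36.6 ± 6.40 (n = 4) in the CD8 T gate, 46.6 ± 7.88 (n = 4) in the CD4 T gate, 48.8 ± 9.30 (n = 3) in NK cells, 32.5 ± 3.92 (n = 3) in B cells and 51.0 ± 12.2 (n = 3) in monocytes. In every gate but B, the PDOX library had the highest *H2-D1* value.

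*B2m*, the light chain shared by all class I molecules, stood at 70.0, 82.8, 71.5 and 76.9 in CD8+ T cells and at 65.3, 80.7, 65.4 and 78.4 in CD4+ T cells. In monocytes it stood at 107, 110, 73.8 and 110. Thus monocytes of every library except anti-OX40/CpG were far above both T gates, and in that library the monocyte value lay just above the CD8 T value. In B cells it stood at 49.3, 51.9, 47.2 and 81.4, with the PDOX library apart from the rest. The 4 platelet markers summed to 5.25, 1.30, 0 and 38.6 in these B gates, with all 4 detected in every library except anti-OX40/CpG. In PDOX the most abundant was *Pf4*, at 16.4. The part of the platelet markers in the *B2m* value of PDOX B cells was not tested.

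The transporter and loading genes were sparse. *Tap1*, the first chain of the peptide transporter, stood at 1.36, 1.86, 1.36 and 1.97 in CD8+ T cells and at 1.75, 2.14, 1.97 and 2.19 in CD4+ T cells. *Tap2*, its partner chain, stood at 0.992, 1.36, 1.23 and 1.63 in CD8+ T cells and at 1.41, 1.97, 2.36 and 2.19 in CD4+ T cells. The CD4 T value of both chains was the higher in each of the 4 libraries. *Tap2* was almost absent from NK counts, at 0, 0, 0.194 and 0.763. *Tapbp*, which encodes tapasin, stood at 3.12, 3.48, 3.09 and 2.85 in CD8+ T cells and at 4.77, 5.24, 4.74 and 3.35 in monocytes, which were the higher in every library.

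Of the immunoproteasome subunits, *Psmb8* stood at 10.002, 12.8, 10.7 and 12.1 in CD8+ T cells, at 9.50, 11.2, 11.2 and 13.8 in CD4+ T cells, and at 7.44, 4.78, 5.81 and 9.16 in NK cells. NK cells had the lowest *Psmb8* value of the 5 gates in each library. *Psmb9* stood at 2.48, 4.13, 3.09 and 4.19 in CD8+ T cells and at 2.76, 4.87, 3.88 and 4.48 in CD4+ T cells, lowest in the untreated library in both. *Psmb10* stood at 3.04, 3.77, 3.06 and 3.83 in CD8+ T cells and at 4.43, 4.55, 5.18 and 4.26 in monocytes. *Psme1*, a subunit of the PA28 activator that opens the proteasome gate, stood at 7.67, 8.28, 7.99 and 7.46 in CD8+ T cells and at 3.25, 7.64, 4.07 and 3.05 in NK cells. Its NK values were low in the 3 libraries with at least 10 NK cells, and the anti-PD-L1 value of 7.64 comes from 5 cells.

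**Figure D1:**
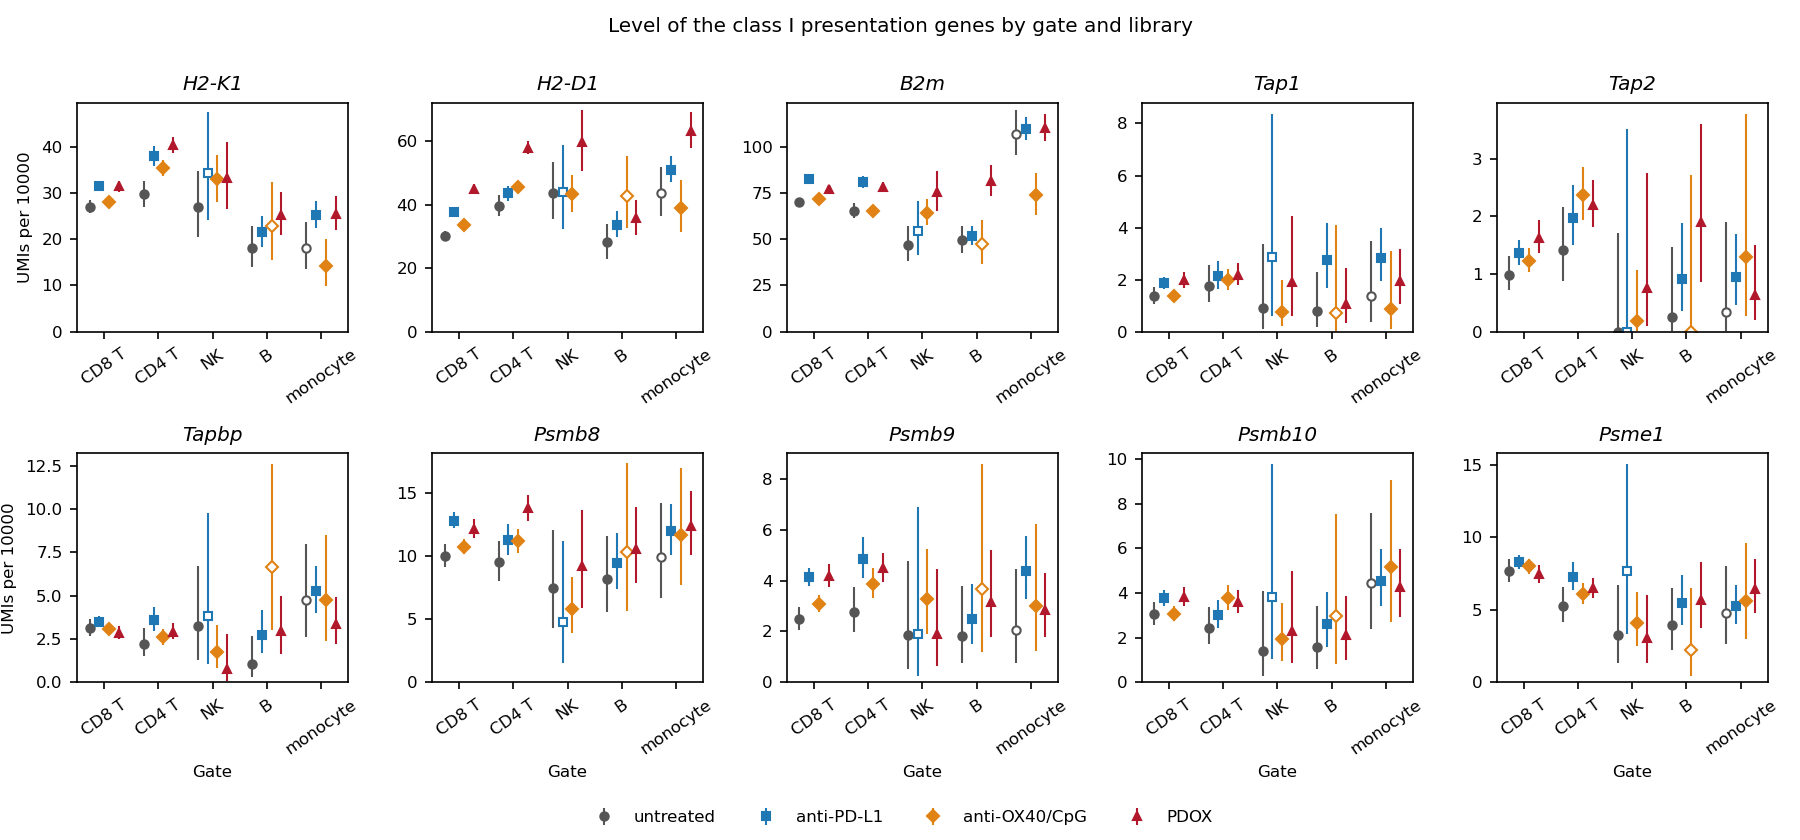
UMIs per 10000 (vertical axes, 1 panel per gene) of the 10 class I presentation genes in 5 gates (horizontal axes) of the 4 libraries; bars are 95% exact Poisson intervals and open symbols are profiles of fewer than 10 cells. *B2m* reached 110 in monocytes and *Psme1* was low in NK cells, at 4.07 or less wherever 10 or more cells were held.

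Comparisons between gates used the libraries as replicates, with edgeR's quasi-likelihood test on summed UMIs, library as a block, and Benjamini-Hochberg adjustment over the 3224 genes tested. In CD8+ against CD4+ T cells, 1 of 10 members was lower and 0 were higher, against 2.26% and 3.19% of all genes tested (5.46% in either direction). *Tap2* was lower in CD8+ T cells by a log2 fold change of −0.56 ± 0.16 (SE; adjusted p = 0.0368 by edgeR, lower in 4 of 4 libraries). *H2-D1* differed by −0.30 (adjusted p = 0.241 by edgeR, lower in 4 of 4 libraries) and *Psme1* by 0.38 (adjusted p = 0.0714, higher in 4 of 4 libraries), and neither passed. The median over members was −0.05, and 0.01 over all genes. The *Tap2* call was lost without the anti-PD-L1 library (−0.59, adjusted p = 0.0722 by edgeR) and without the anti-OX40/CpG library (−0.41, adjusted p = 0.527), and with no library block (−0.58, adjusted p = 0.246). With DESeq2 its adjusted p was 0.0831.

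NK cells had less *Tap2*, *Psmb8* and *Psme1* than T cells, and edgeR called no other member. DESeq2 called 4 members in this comparison. By edgeR, 3 of the 10 members were lower and 0 higher in NK cells than in the mean of the T gates. The shares of all genes were 7.32% lower and 5.99% higher (13.3% in either direction). *Psme1* was lower by −0.88 ± 0.21 (log2; adjusted p = 0.00553 by edgeR) and *Psmb8* by −0.58 ± 0.17 (adjusted p = 0.0232), each in 3 of 3 libraries. *Tap2* differed by −2.36 ± 0.61 (adjusted p = 0.00904 by edgeR, lower in 3 of 3 libraries), which rests on 3 UMIs in NK cells against 565 in T cells, a pooled ratio of 0.190 [0.0391, 0.559]. *H2-D1* was not called, at 0.30 (adjusted p = 0.178 by edgeR, higher in 3 of 3 libraries). The median was −0.55 over members and −0.11 over all genes. Without the anti-OX40/CpG library, which held 31 of the NK cells, the *Tap2* and *Psmb8* calls were lost (−1.95, adjusted p = 0.168 by edgeR, and −0.52, adjusted p = 0.188). *Psmb8* was also lost without PDOX (−0.69, adjusted p = 0.0582 by edgeR), and *Tap2* when NK cells could hold 1 UMI of CD3 genes (−0.90, adjusted p = 0.184).

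Against the mean of the T gates, B cells had less *H2-K1*, and the count of members called lower was near the share of all genes. It was the only member called of 10, lower by −0.56 ± 0.16 (log2; adjusted p = 0.0121 by edgeR, 3 of 3 libraries), against 11.7% of all genes lower and 11.8% higher (23.5% in either direction). The count was 7 with no filter on low counts (7.31% of all genes), 5 with the comparison fitted on its own gates (14.1%) and 3 with cells thinned to 750 UMIs (24.9%). At −0.57 for *Psmb9* (adjusted p = 0.0561 by edgeR, lower in 3 of 3 libraries) and −0.54 for *Psmb10* (adjusted p = 0.0775, lower in 3 of 3), these immunoproteasome subunits missed the threshold against the mean of the T gates. The median was −0.36 over members and −0.05 over all genes. The *H2-K1* difference was −0.69 without PDOX, the library with the highest sum of platelet markers in its B gate (adjusted p = 0.0193 by edgeR). It was lost without the anti-PD-L1 library (−0.47, adjusted p = 0.136 by edgeR) and with no library block (−0.52, adjusted p = 0.0779). By pair, *H2-K1* was called against CD4+ T cells (adjusted p = 0.00636 by edgeR) and not against CD8+ T cells (adjusted p = 0.0694). Also called lower in B cells were *Psme1* and *Psmb10* against CD8+ T cells (adjusted p = 0.0171 and 0.0473 by edgeR). Against CD4+ T cells these were *H2-D1* and *Psmb9* (adjusted p = 0.0315 and 0.038 by edgeR).

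Monocytes differed from T cells in 6 of the 10 members, in both directions. Higher were *Tapbp* by 0.67 ± 0.19 (log2; adjusted p = 0.00583 by edgeR, 3 of 3 libraries), *Psmb10* by 0.54 ± 0.16 (adjusted p = 0.00871, 3 of 3), *B2m* by 0.47 ± 0.16 (adjusted p = 0.0192, 3 of 3) and *H2-D1* by 0.38 ± 0.14 (adjusted p = 0.0275, 2 of 3). Lower were *H2-K1* by −0.47 ± 0.16 (adjusted p = 0.0208 by edgeR, 3 of 3 libraries) and *Tap2* by −0.81 ± 0.32 (adjusted p = 0.0483, 3 of 3). So against the mean of the T gates the K and D heavy chains were called in opposite directions. No single pair of gates showed both calls: against CD8+ T cells only *H2-D1* was called (*H2-K1* adjusted p = 0.107 by edgeR), and against CD4+ T cells only *H2-K1* (*H2-D1* adjusted p = 0.259). These 4 higher and 2 lower members stand against 21.7% and 18.8% of all genes (40.4% in either direction), and the medians were 0.25 over members and −0.10 over all genes.

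Several monocyte calls depended on a single library. Without anti-PD-L1, which has 31 of the monocytes, only 1 of the 10 members was called: *H2-D1* was at 0.32 (adjusted p = 0.179 by edgeR), *B2m* at 0.37 (adjusted p = 0.158), *Tapbp* at 0.55 (adjusted p = 0.174), *Psmb10* at 0.49 (adjusted p = 0.112) and *Tap2* at −1.05 (adjusted p = 0.119). Without PDOX, *H2-D1*, *B2m* and *Tap2* were lost (0.29, 0.37 and −0.54, adjusted p = 0.25, 0.154 and 0.297 by edgeR). Without anti-OX40/CpG, *H2-K1* and *Tap2* were lost (−0.29 and −0.91, adjusted p = 0.171 and 0.0522 by edgeR). Monocytes were deeper than T cells in all libraries but PDOX, with a median of 3194, 3444, 2067 and 1670 UMIs per cell, against 1459 to 1722 in the T gates. With each cell thinned to 750 UMIs, *Psmb10* turned to −0.29 (adjusted p = 0.677 by edgeR). That setting also left 9 monocytes in the anti-OX40/CpG library, which then dropped out of the comparison. At full depth without that library *Psmb10* was at 0.50 (adjusted p = 0.033 by edgeR).

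For each member the gates were ranked by mean level in these same data, so neighboring gates are close by choice. No share of calls over all genes was computed for such steps, so their count is a description. Of the 40 neighboring steps, 3 were called by edgeR: *Tap2* in CD4 T above CD8 T (adjusted p = 0.0368, 4 of 4 libraries), *Tapbp* in monocytes above CD8 T (adjusted p = 0.0195, 3 of 3 libraries) and *Psmb10* in monocytes above CD8 T (adjusted p = 0.0247, 3 of 3). For *B2m*, the order was monocyte, CD8 T, CD4 T, NK and B, and the step from monocyte to CD8 T missed the threshold (adjusted p = 0.067). For *H2-K1* the order was CD4 T, NK, CD8 T, monocyte and B, and for *H2-D1* it was monocyte, NK, CD4 T, CD8 T and B, with no step called in either. The means of NK, B and monocyte gates cover unlike sets of 3 libraries: in the untreated and PDOX libraries, *B2m* was higher in B cells (49.3 and 81.4) than in NK cells (47.0 and 75.6). Over all 10 pairs of gates, 30 of 100 member comparisons were called, against 21.8% over all genes, between 1 for the T gates and 5 for CD4 T cells against monocytes. Leaving out any library lowered this count to between 10 and 18, and the share of all genes to between 15.1% and 19.5%.

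By pair, CD8+ T cells had 3 members higher and 0 lower than NK cells (7.48% and 5.37% of all genes, 12.8% in either direction), 2 higher and 0 lower than B cells (12% and 11.2%, 23.3% in either) and 0 higher and 3 lower than monocytes (19.3% and 22.1%, 41.4% in either). CD4+ T cells had 3 higher and 0 lower than NK cells (6.42% and 5.83%, 12.3% in either), 3 higher and 0 lower than B cells (10.5% and 11%, 21.6% in either) and 2 higher and 3 lower than monocytes (16.3% and 20.4%, 36.7% in either). NK cells had 2 higher and 0 lower than B cells (7.2% and 8.81%, 16% in either) and 0 higher and 4 lower than monocytes (7.38% and 12.6%, 20% in either). B cells had 0 higher and 4 lower than monocytes (12.2% and 16.1%, 28.3% in either). The members higher in T cells than NK cells were *Tap2*, *Psmb8* and *Psme1* in both lineages, and both heavy chains were higher in NK than in B cells. Only the untreated and PDOX libraries entered the fit with both NK and B cells. For NK cells and monocytes these were anti-OX40/CpG and PDOX, and for B cells and monocytes anti-PD-L1 and PDOX. The rest of these comparisons runs through the other gates of the shared fit.

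The heavy chains were compared directly as *H2-D1* UMIs per *H2-K1* UMI. The absolute value of this ratio depends on how each gene is captured and mapped, so it is compared between gates only. It was 1.12, 1.19, 1.19 and 1.43 in CD8+ T cells, 1.34, 1.15, 1.28 and 1.44 in CD4+ T cells, and 2.42, 2.02, 2.73 and 2.47 in monocytes. Every monocyte value lay above every value of the other gates, since NK cells had 1.62, 1.28, 1.31 and 1.79 and B cells 1.55, 1.56, 1.87 and 1.41.

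Over the 3 libraries with at least 10 monocytes, the ratio was higher than in CD8+ T cells by a mean log2 difference of 0.91 ± 0.24 (SD). An exact 2-sided permutation test gave p = 0.25, the smallest that 3 libraries allow. With the 8 untreated monocytes included, the difference was 0.96 ± 0.22 over 4 libraries, with an exact p = 0.125, again the smallest possible. Against CD4+ T cells it was 0.90 ± 0.17 over 3 libraries (exact p = 0.25), and it was higher in 3 of 3. This exact test cannot reach 0.05 with so few libraries. The PDOX library had the highest ratio within each T gate, at 1.43 [1.36, 1.51] in CD8+ and 1.44 [1.36, 1.52] in CD4+ T cells. In CD4+ T cells its interval overlapped that of the untreated library, at 1.34 [1.18, 1.51].

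**Figure D2:**
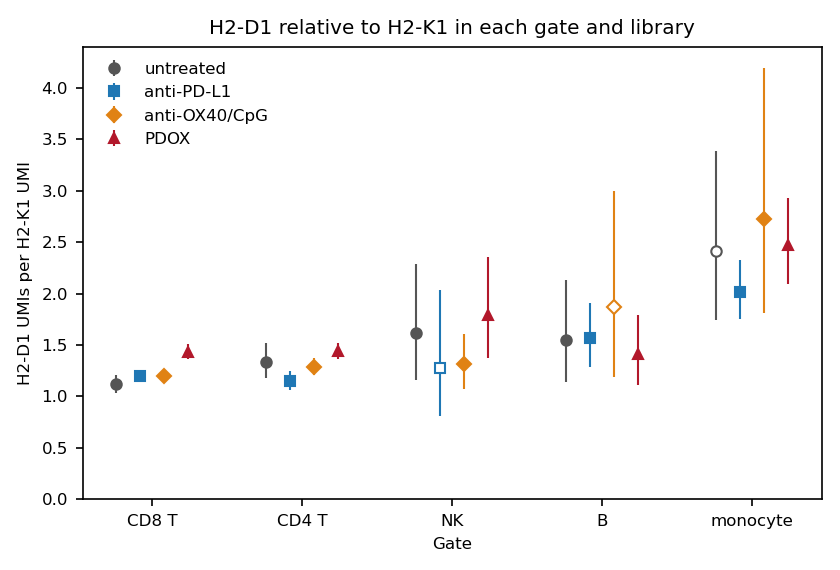
*H2-D1* UMIs per *H2-K1* UMI (vertical axis) by gate (horizontal axis) and library (symbols); bars are 95% exact intervals and open symbols are profiles of fewer than 10 cells. Monocytes lie at 2.02 or more in all 4 libraries, above each value of the other gates.

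The members share a location: 7 of the 10 lie in the MHC region of chromosome 17, on assembly GRCm38.p6. In order they are *Tapbp* (chr17:33919478-33929290), *H2-K1* (chr17:33996012-34000619), *Psmb9* (chr17:34182030-34187330), *Tap1* (chr17:34187556-34197225), *Psmb8* (chr17:34198195-34201454), *Tap2* (chr17:34204479-34216321) and *H2-D1* (chr17:35263094-35267497). *B2m* (chr2:122147687-122153082), *Psmb10* (chr8:105935728-105938392) and *Psme1* (chr14:55578494-55581527) lie elsewhere. *Psmb9* and *Tap1* are transcribed away from each other, with 225 bases between their starts. The identifiers in the tables are ENSMUSG00000061232 for *H2-K1*, ENSMUSG00000073411 for *H2-D1*, ENSMUSG00000060802 for *B2m*, ENSMUSG00000037321 for *Tap1*, ENSMUSG00000024339 for *Tap2*, ENSMUSG00000024308 for *Tapbp*, ENSMUSG00000024338 for *Psmb8*, ENSMUSG00000096727 for *Psmb9*, ENSMUSG00000031897 for *Psmb10* and ENSMUSG00000022216 for *Psme1*.

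Upstream sequence from RefSeq (GRCm38.p6) was matched for 9 of the 10 members. The 250 bases before the starts of *H2-K1* (chr17:34000348-34000597, minus strand) and *H2-D1* (chr17:35262844-35263093, plus strand) recorded there are shown because these paralogs were called in opposite directions in monocytes against the mean of the T gates, and that of *B2m* (chr2:122147437-122147686, plus strand) because it encodes their shared partner. The *H2-K1* window precedes a transcript start that lies inside the gene span given above, so it is within that span and not before its outer end. Over 177 bases the heavy chain windows align with 91.0% identity and 0 gaps. Capitals mark GGGATTCCC, a κB-like motif, and TTTCACTTC, an interferon-response-like motif, in the heavy chains, and GAAACTGAAA in *B2m*, a match to GAAA, any 2 bases and GAAA.
H2-K1: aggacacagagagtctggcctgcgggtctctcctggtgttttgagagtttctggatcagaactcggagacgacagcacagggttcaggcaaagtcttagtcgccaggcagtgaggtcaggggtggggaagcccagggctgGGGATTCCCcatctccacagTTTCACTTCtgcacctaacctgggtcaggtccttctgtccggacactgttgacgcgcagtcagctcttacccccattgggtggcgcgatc
H2-D1: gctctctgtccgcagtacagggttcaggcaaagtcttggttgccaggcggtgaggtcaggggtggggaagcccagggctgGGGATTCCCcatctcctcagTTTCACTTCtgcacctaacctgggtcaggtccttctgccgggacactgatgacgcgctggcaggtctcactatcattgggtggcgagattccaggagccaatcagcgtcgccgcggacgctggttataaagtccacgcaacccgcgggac
B2m: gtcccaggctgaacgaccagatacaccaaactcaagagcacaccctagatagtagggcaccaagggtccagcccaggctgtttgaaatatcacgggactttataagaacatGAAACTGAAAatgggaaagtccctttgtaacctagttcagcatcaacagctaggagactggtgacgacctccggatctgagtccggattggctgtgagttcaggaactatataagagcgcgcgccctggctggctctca

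In both heavy chain windows the κB-like motif is followed by the interferon-response-like motif, their first bases 20 bases apart. They lie at −110 to −102 and −90 to −82 from this inner start of *H2-K1*, and at −170 to −162 and −150 to −142 from the start of *H2-D1*. Both strands were searched, and among 32817 upstream windows of the same length GGGATTCCC is in 0.302% and TTTCACTTC in 0.402%. The tandem GAAA motif, at −139 to −130 in *B2m*, is in 2.97%. Another motif, TTCNNNGAA, is in 7.01% of windows and among the members matched in *Psmb8* only, at −97 to −89. The 225 bases between *Psmb9* and *Tap1* hold none of these letters, which says nothing of any factor. The letters were chosen after the sequences had been seen, and a match is a description, not a site or a cause.

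Within T cells, the study separates cells by *Id2*, a transcriptional regulator of effector differentiation. *Id2*+ cells, in which the natural log of 1 plus *Id2* UMIs per 10000 was above 1, made up 23.96%, 28.1%, 32.9% and 49.9% of CD8+ and 17.3%, 21.8%, 36.6% and 58.5% of CD4+ T cells. In CD8+ T cells, *H2-D1* stood at 32.1, 42.8, 38.2 and 49.9 in *Id2*+ cells and at 29.3, 34.7, 30.7 and 38.3 in *Id2*- cells. It was higher in the *Id2*+ cells of each library. *H2-D1* rose by a log2 fold change of 0.34 ± 0.08 (adjusted p = 0.00538 by edgeR, 4 of 4 libraries). It was the only member called of 10, against 5.96% of all 5607 genes tested higher and 4.03% lower (9.99% in either direction), and 4 members had an unadjusted p under 0.05, against 22.9% of all genes. DESeq2 also called 1 member.

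Other members were higher in *Id2*+ CD8+ T cells without passing: *Tap2* by 0.40 (adjusted p = 0.0619 by edgeR, 4 of 4 libraries), *Tap1* by 0.31 (adjusted p = 0.111, 4 of 4) and *H2-K1* by 0.19 (adjusted p = 0.145, 4 of 4). *Tapbp* at −0.15 (adjusted p = 0.417 by edgeR) and *Psme1* at −0.11 (adjusted p = 0.522) were lower in 4 of 4 libraries and also not called. The median was 0.14 over members and 0.00 over all genes. The *H2-D1* call was lost without anti-PD-L1 (0.33, adjusted p = 0.0587 by edgeR), without anti-OX40/CpG (0.31, adjusted p = 0.0785) and with no library block (0.36, adjusted p = 0.297). *Id2*+ CD8+ T cells were deeper, with medians of 1725, 1888, 1864 and 1876 UMIs per cell against 1461, 1638, 1601 and 1481.

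In CD4+ T cells, *H2-D1* stood at 31.2, 41.3, 48.2 and 61.6 in *Id2*+ cells and at 42.4, 44.4, 43.3 and 50.7 in *Id2*- cells. The *Id2*+ value was the lower in the untreated and anti-PD-L1 libraries and the higher in the anti-OX40/CpG and PDOX libraries. By edgeR 0 of 10 members were called (0 at an unadjusted p under 0.05, where 16.1% of all genes were, and 0 by DESeq2), against 2.75% of 3277 genes higher and 1.98% lower (4.73% in either direction). The difference between the lineages was tested as an interaction, in which edgeR called 0 members (1 at an unadjusted p under 0.05, where 6.95% of all genes were, not run in DESeq2), against 0.455% of genes higher and 0% lower. For *H2-D1* the interaction was −0.27 (adjusted p = 0.782 by edgeR), so its response in CD4+ T cells is not shown to differ from that in CD8+ T cells. For *Tap1* it was −0.70 (adjusted p = 0.344 by edgeR).

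Class I genes are interferon-inducible, so T cells were also split by 9 interferon-stimulated genes (ISG) that include no member. ISG+ cells, with 2 or more UMIs over the list, made up 14.7%, 34.3%, 11.0% and 15.4% of CD8+ and 15.3%, 30.6%, 14.1% and 16.4% of CD4+ T cells, highest in the anti-PD-L1 library. In CD8+ T cells *Psmb8* stood at 11.8, 14.1, 13.1 and 12.3 in ISG+ cells and at 9.11, 11.3, 9.78 and 11.4 in cells with no ISG UMI. It was the higher in ISG+ cells of each library. *Psmb8* rose by 0.36 ± 0.08 (log2; adjusted p = 0.0148 by edgeR, 4 of 4 libraries), as 1 of 10 members called higher and 0 lower, against 1.35% and 0.205% of 4886 genes (1.56% in either direction). At an unadjusted p under 0.05 there were 8 of 10 members, against 10.5% of all genes, and DESeq2 called 0.

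*Tap2* differed by 0.65 in ISG+ CD8+ T cells (adjusted p = 0.0528 by edgeR, higher in 4 of 4 libraries), *Tap1* by 0.40 (adjusted p = 0.29, 4 of 4) and *Tapbp* by 0.34 (adjusted p = 0.182, 4 of 4). All 10 members had a positive fold change, with a median of 0.29 against −0.01 over all genes. The smallest was *H2-K1*, at 0.11 (adjusted p = 0.68 by edgeR, 3 of 4 libraries). The *Psmb8* call was lost without anti-PD-L1 (0.34, adjusted p = 0.279 by edgeR), anti-OX40/CpG (0.33, adjusted p = 0.0732) or PDOX (0.40, adjusted p = 0.054), and with no library block (0.36, adjusted p = 0.86). ISG+ cells were deeper, with medians of 1662, 1893, 1951 and 1963 UMIs per cell against 1426, 1556, 1549 and 1488. With each cell thinned to 750 UMIs, *Psmb8* was at 0.14 (adjusted p = 0.959 by edgeR). Thinning also redrew the subset, from 46, 218, 73 and 69 ISG+ cells to 19, 87, 12 and 27, so it does not compare the same cells at equal depth.

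In CD4+ T cells, *Psmb9* stood at 3.66, 5.91, 6.18 and 5.42 in ISG+ cells and at 2.56, 3.46, 3.07 and 4.07 in cells with no ISG UMI. *Psmb8* stood at 11.0, 11.9, 15.9 and 17.1 against 9.32, 8.88, 9.09 and 12.6. Both immunoproteasome subunits were the higher in ISG+ cells of every library. *Psmb9* differed by 0.73 ± 0.17 and *Psmb8* by 0.55 ± 0.13 (adjusted p = 0.137 for each by edgeR, 4 of 4 libraries), and neither passed. By edgeR 0 members were called (4 at an unadjusted p under 0.05, where 7.56% of all genes were, and 0 by DESeq2), against 0.104% of 1919 genes higher and 0% lower. As an interaction between lineages edgeR called 0 members (1 at an unadjusted p under 0.05, where 3.38% of all genes were, *Psmb9* at 0.56, adjusted p = 1 in the edgeR fit, not run in DESeq2), where 0% of 3525 genes were called in either direction.

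**Figure D3:**
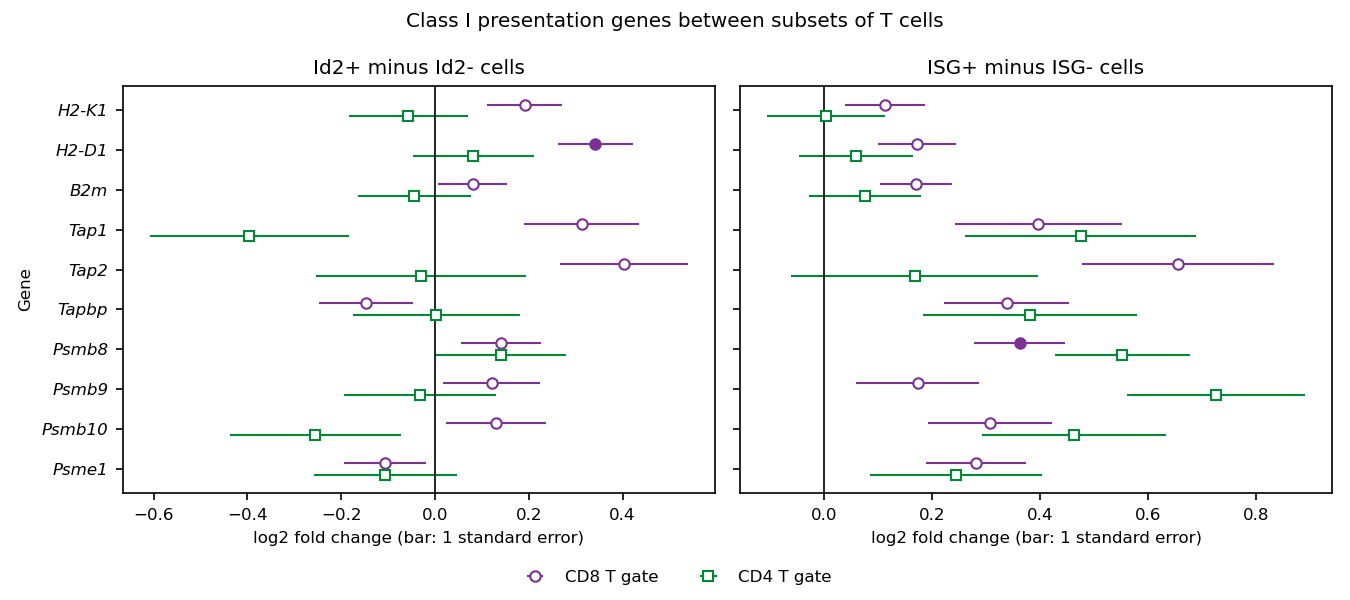
log2 fold change (horizontal axes) of each member (vertical axis) between *Id2*+ and *Id2*- cells (left) and ISG+ and ISG- cells (right) of the T gates; bars are 1 standard error and filled symbols are called. The called values are *H2-D1* at 0.34 and *Psmb8* at 0.36, both in CD8+ T cells.

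Each treatment has a single library, so ratios to the untreated library are given with counting intervals and no test. Among genes with 200 or more UMIs over both libraries, a gene is counted as past the fold at a ratio of 5/4 or more, or 4/5 or less. In CD8+ T cells 4 of 10 members counted were past it in the anti-PD-L1 library, against 12.6% of all genes, 0 of 9 in the anti-OX40/CpG library, against 12.9%, and 4 of 9 in the PDOX library, against 19.7%. On the lower side there were 0 members in each, against 12.9%, 17% and 20.7% of genes. The median ratio of the members was 1.245, 1.04 and 1.21, and that of all genes 0.997, 0.965 and 1.01.

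*H2-D1* had a ratio of 1.49 [1.41, 1.59] in CD8+ T cells of the PDOX library, 1.2495 [1.18, 1.33], just short of the fold, in anti-PD-L1 and 1.12 [1.05, 1.19] in anti-OX40/CpG. *H2-K1* had 1.16 [1.09, 1.245], 1.17 [1.10, 1.24] and 1.04 [0.977, 1.11]. In these CD8+ T cells the D heavy chain was thus further from untreated than the K heavy chain in PDOX. Their intervals do not overlap, but they cover counting error only and not the spread between mice. In CD4+ T cells the PDOX intervals of the D and K chains overlapped. *Psmb9* had 1.69 [1.37, 2.101] in PDOX, 1.67 [1.36, 2.05] in anti-PD-L1 and 1.24 [1.01, 1.54] in anti-OX40/CpG. *Tap1*, its neighbor, had 1.45 [1.08, 1.96], 1.36 [1.03, 1.82] and 0.99996 [0.745, 1.35]. *Psmb8* passed the fold in anti-PD-L1 only, at 1.28 [1.15, 1.42], and *Psmb10* in PDOX only, at 1.26 [1.03, 1.55]. *Tap2* passed it in anti-PD-L1, at 1.37 [0.991, 1.94], with 1.24 [0.890, 1.76] in anti-OX40/CpG and 1.65 [1.17, 2.34] in PDOX, both on fewer than 200 UMIs and so not counted. *B2m* (1.18 in anti-PD-L1, 1.02 in anti-OX40/CpG and 1.10 in PDOX), *Psme1* (1.08, 1.04 and 0.973 in the same order) and *Tapbp* (1.12, 0.989 and 0.913) stayed within it.

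In CD4+ T cells 2 of 5 members counted were past the fold in anti-PD-L1, against 13.6% of genes, 2 of 7 in anti-OX40/CpG, against 25.9%, and 5 of 7 in PDOX, against 31.8%. On the lower side there were 0 members in each, against 7.1%, 14.3% and 16.4%. The PDOX members were *Psmb9* at 1.62 [1.16, 2.32], *Psmb10* at 1.47 [1.03, 2.17], *H2-D1* at 1.46 [1.34, 1.60], *Psmb8* at 1.45 [1.21, 1.75] and *H2-K1* at 1.36 [1.22, 1.51]. In anti-PD-L1 they were *Psme1* at 1.38 [1.06, 1.82] and *H2-K1* at 1.28 [1.14, 1.43]. In anti-OX40/CpG they were *Psmb10* at 1.55 [1.08, 2.28] and *Psmb9* at 1.41 [0.997, 2.03]. The median ratio of the members was 1.24 in anti-PD-L1, 1.17 in anti-OX40/CpG and 1.45 in PDOX, against 1.05, 1.07 and 1.09 for all genes. All these ratios share the untreated library, the smallest of the 4.

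Directly against the single regimens, *H2-D1* in PDOX was 1.20 [1.14, 1.2497] times anti-PD-L1 and 1.34 [1.28, 1.40] times anti-OX40/CpG in CD8+ T cells. The CD4+ values were 1.33 [1.247, 1.42] and 1.27 [1.21, 1.35] times. *H2-K1* was close to anti-PD-L1, at 0.996 [0.947, 1.05] in CD8+ and 1.06 [0.987, 1.14] in CD4+ T cells, and was 1.12 [1.06, 1.18] and 1.14 [1.07, 1.22] times anti-OX40/CpG. The PDOX library also had the largest share of *Id2*+ cells, and *H2-D1* was read within each subset as a description. Its PDOX ratio to untreated was 1.55 [1.40, 1.72] in *Id2*+ and 1.31 [1.20, 1.42] in *Id2*- CD8+ T cells. In CD4+ T cells it was 1.97 [1.63, 2.40] and 1.19 [1.07, 1.34]. The value of 1.97 rests on 17 untreated cells with 114 *H2-D1* UMIs, in a subset where the median ratio of all genes was 1.34. These are ratios of single libraries, so whether the subsets differ was not tested. The part of the *Id2*+ share in the PDOX ratios was not tested either.

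Among all genes counted within the subsets, PDOX had 30% higher and 24.5% lower in *Id2*+ CD8+ T cells and 15.9% and 12.9% in *Id2*- cells. Among CD4+ T cells these were 56.6% and 12% in *Id2*+ and 18.8% and 12.4% in *Id2*- cells. For anti-PD-L1 the shares were 22.4% and 18.2%, 12% and 8.51%, 41% and 19.7%, and 14% and 10.8% in the same order of subsets, and for anti-OX40/CpG 20.5% and 22.8%, 12.5% and 13%, 52.6% and 13.9%, and 16.9% and 16.2%. The *H2-D1* ratio in *Id2*+ CD4+ T cells therefore stood among many genes past the fold.

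The ISG list summed to 4.75, 9.80, 3.17 and 5.37 UMIs per 10000 in CD8+ and 5.12, 9.68, 3.95 and 5.03 in CD4+ T cells, with 9 of 9 genes in the table and all detected except 1 in untreated CD4+ T cells. The most abundant was *Zbp1*, or *Isg15* in the CD8+ T cells of anti-PD-L1 and PDOX. It was high in anti-PD-L1 and close to untreated in PDOX, while *H2-D1* was highest in PDOX. Its part in the member ratios was not tested. The platelet markers summed to 0.145, 0.253, 0.131 and 0.753 and the neutrophil markers to 0.0827, 0.114, 0.0612 and 0.967 in CD8+ T cells, both highest in PDOX. In the CD4 T gate the platelet sums were 0.202, 0.133, 0.130 and 0.454, highest in PDOX, and the neutrophil sums 1.01, 0.234, 0.108 and 0.795, highest in untreated. In PDOX all 4 platelet markers were detected in both lineages, with *Ppbp* the most abundant, and 4 of 5 neutrophil markers, with *S100a9* the most abundant in CD8+ and *S100a8* in CD4+ T cells. The untreated library, which all these ratios share, had the highest level of *Alas2*, the only gene of the erythroid list in the table, at 0.537, 0.0245, 0.149 and 0.0126 in CD8+ and 0.337, 0, 0.0217 and 0.0189 in CD4+ T cells, beside its 7.99% of hemoglobin UMIs. The part of these markers in the ratios was not tested.

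**Figure D4:**
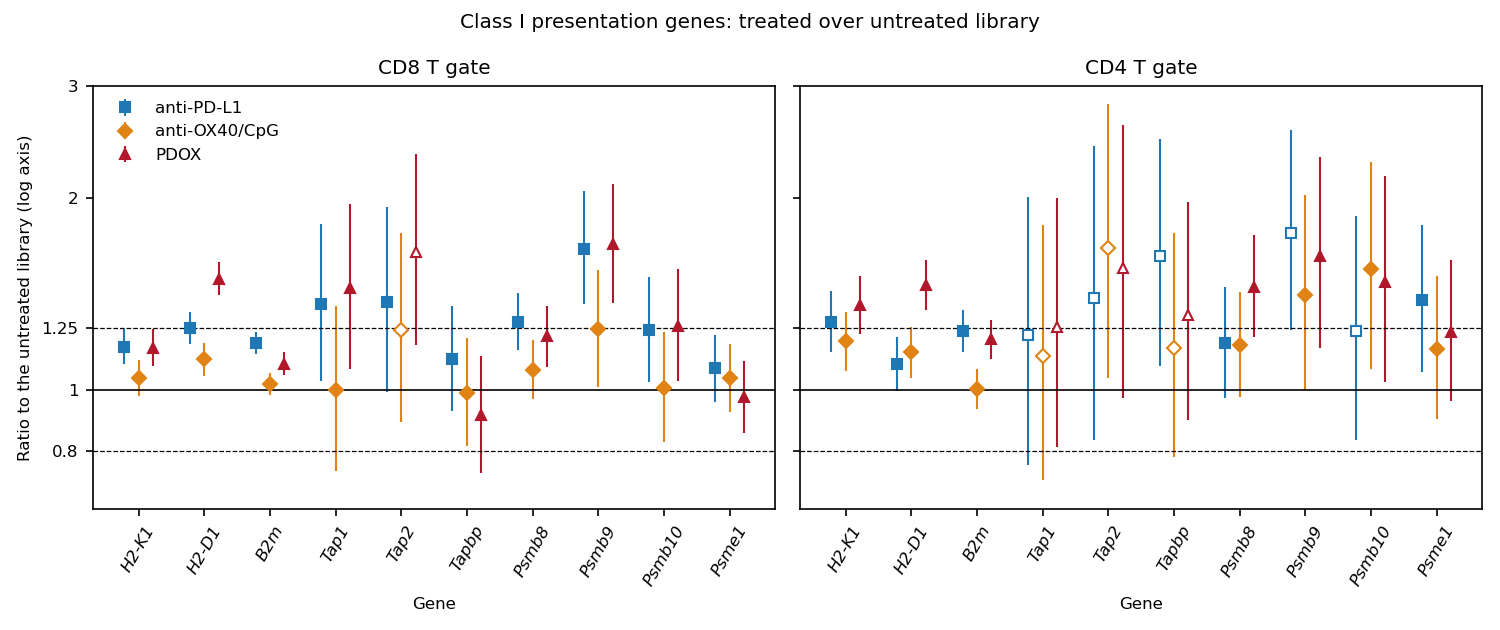
Ratio of each treated library to the untreated library (log axis) for each member (horizontal axis) in the CD8 T and CD4 T gates; bars are 95% exact intervals, dashed lines are ratios of 5/4 and 4/5, and open symbols have fewer than 200 UMIs. *H2-D1* in PDOX lies at 1.49 and 1.46.

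The rest of the pathway was read from 4 lists. Of 10 nonclassical class I genes, 6 were tested between gates and 3 were lower in monocytes, against 18.8% of all genes, where edgeR called *H2-Q7* at −1.54 (adjusted p = 1.59e-06, 3 of 3 libraries), *H2-Q4* at −0.90 (adjusted p = 0.00107, 3 of 3) and *H2-T22* at −0.79 (adjusted p = 0.00172, 3 of 3). *H2-Q7*, a Qa-2 gene, was also lower in B cells (−1.02, adjusted p = 0.00067 by edgeR, 3 of 3 libraries) and higher in *Id2*+ CD8+ T cells (0.44, adjusted p = 0.000862, 4 of 4). Its ratio to untreated in PDOX was 1.59 [1.43, 1.78] in CD8+ and 2.04 [1.67, 2.51] in CD4+ T cells. Thus the direction of *H2-Q7* was that of *H2-K1*, not *H2-D1*, in monocytes.

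Of 17 other proteasome genes, 5 were higher in monocytes and 0 lower, against 21.7% and 18.8% of all genes, which sets the list little apart. The largest were *Pomp*, an assembly chaperone, at 1.16 (adjusted p = 8.78e-07 by edgeR, 3 of 3 libraries) and *Psma7* at 0.91 (adjusted p = 9.51e-06, 3 of 3). *Psme2*, the partner of *Psme1* in PA28, was lower in NK cells by −0.996 (adjusted p = 0.00121 by edgeR, 3 of 3 libraries) and in B cells by −1.29 (adjusted p = 4.29e-06, 3 of 3). So both PA28 subunits were called lower in NK cells, while *Psme1* was not called in B cells (−0.40, adjusted p = 0.101 by edgeR). Of the 17 genes, 1 was lower and 0 higher in NK cells, against 7.32% and 5.99% of all genes. In B cells 3 were lower and 0 higher, against 11.7% and 11.8%. In *Id2*+ CD8+ T cells 4 of the 17 were higher and 0 lower by edgeR, against 5.96% and 4.03% of all genes, with *Psmb3* at 0.40 (adjusted p = 0.00764, 4 of 4 libraries). These calls were unstable: DESeq2 called 0 of them, and over 13 other settings *Psmb3* was called in 8, *Psmb2* in 6, *Psma4* in 4 and *Psmb7* in 2.

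Of the loading list, *Tapbpl*, a tapasin-related peptide editor, was higher (0.69, adjusted p = 0.0316 by edgeR, 4 of 4 libraries) and *Pdia3*, an oxidoreductase of the loading complex, lower (−0.56, adjusted p = 0.00232, 4 of 4) in CD8+ than CD4+ T cells. These were 1 higher and 1 lower of 5 genes tested, against 3.19% and 2.26% of all genes. The *Tapbpl* call held in 8 other settings and was lost in 5, among them DESeq2 (adjusted p = 0.127) and no library block (adjusted p = 0.17 by edgeR). *Nlrc5*, the class I transactivator, stood at 0.909, 0.645, 0.612 and 0.515 in CD8+ T cells and did not pass the filter on low counts in the comparisons between gates.

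Genes outside all lists were ranked by likeness to the mean pattern of the members over the 17 gate profiles, among 1864 genes. The closest were *Klf13* (Pearson r = 0.860), *Rgs10* (0.845), *Vsir* (0.840), *Eif3l* (0.839) and *Gapdh* (0.828). With gate means subtracted, which leaves differences between libraries, they were *Ndufb3* (0.894), *Atp5l* (0.867), *Sumo3* (0.847), *Atp5f1* (0.835) and *Vdac3* (0.812). These values are descriptions, since profiles of a library share their mouse and depth.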

How the data were processed

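Raw UMI counts per gene and cell, deposited by the authors for 4 libraries made with the 10x Chromium 3′ kit, were used as deposited (Cell Ranger, mm10; the handling of reads with several matches is not stated). Genes of mitochondria, ribosomal proteins and hemoglobin were set aside and cells with 200 or more genes were kept. Gates used UMIs of marker genes: CD3 genes with *Cd8a* or *Cd8b1*, or with *Cd4*, for T cells, and 0 CD3 UMIs with 2 or more of an NK, B or monocyte list for the others. UMIs were summed per gate or subset and library, with at least 10 cells. edgeR 4.0.16 in R 4.3.3 (TMM, filterByExpr, quasi-likelihood test, Benjamini-Hochberg over all genes tested, adjusted p under 0.05) took library as a block, since the gates of a library come from the same blood. Treated libraries were compared by ratios with 95% exact intervals (scipy 1.17.1). The depth per library was 2392650 to 4969885 UMIs. By the rule for named genes all 10 members, up to 4 called genes of each wider list, and the 5 genes most alike in pattern may be named; other genes are named as markers. The members and lists were chosen with earlier results of these data known. Alternatives were other scaling, DESeq2 1.42.0, filters, gates, subsets, doublet scores (scanpy 1.11.5), thinning to 750 UMIs, no block and leaving out each library. The procedures were tested on simulated data. Clustering and tests over single cells were not used. A gene of the regulator list is not reported here.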

Additional observations from a re-analysis of the deposited data

How the results depend on the processing

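Calls of members were few and often near the threshold, so counts moved with the settings; no member called between gates or subsets changed direction except *Psmb10* in monocytes (−0.29 with cells thinned to 750 UMIs), and the cause was not tested. Of the wider lists, *Psmb5* in monocytes (0.68, adjusted p = 0.00377 by edgeR, 3 of 3 libraries) went to −0.0103 with thinning, and *Pdia3* in ISG+ CD8+ T cells (0.51, adjusted p = 0.0463 by edgeR, 4 of 4 libraries) to −0.27. *Psme1* in NK cells was called in 17 of 17 settings, *H2-K1* in B cells in 14 and not in 3, and *H2-D1* in *Id2*+ CD8+ T cells in 10 and not in 3. Among the members, the least stable were *Tap2* in monocytes (called in 6, not in 11), *Psmb8* in ISG+ CD8+ T cells (5, not in 8) and *Tap2* between CD8+ and CD4+ T cells (9, not in 8).

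With no replicate block (library left out of the model), members called became 0 between CD8+ and CD4+ T cells (2.14% of all genes in either direction), 0 in B cells (21.2%), 3 in monocytes (40.0%), 0 in *Id2*+ (1.61%) and 0 in ISG+ CD8+ T cells (0.0205%). So few genes of any kind were called in that last comparison that its 0 says nothing of the members. With no filter on low counts they were 0, 5, 7 and 2 for CD8+ against CD4+, NK, B and monocyte comparisons (1.91%, 4.08%, 7.31% and 13.8% of all genes in either direction) and 0 for ISG+ CD8+ T cells (1.44%), and the median of all genes shifted to −0.71, −0.50 and −0.57 in NK, B and monocyte comparisons. With each comparison fitted on its own gates they were 4 (CD8+ against CD4+, 5.3% of all genes), 5 (B, 14.1%) and 3 (monocyte, 26.7%), and the all-gene median was −0.34 in NK cells and −0.24 in monocytes. DESeq2 gave 2 for CD8+ against CD4+ (3.6%) and 0 for ISG+ CD8+ T cells (0.143%), where DESeq2 size factors in edgeR gave 2 (1.58%). Thinning gave 3 in B cells (24.9%), 2 in monocytes (27.5%; the anti-OX40/CpG library also dropped below 10 cells) and 0 in ISG+ CD8+ T cells (0.697%). T gates by normalized *Cd8a* or *Cd4* gave 0 in B cells (23.2%). Allowing 1 CD3 UMI in the other gates gave 0 for CD8+ against CD4+ (5.16%) and 2 in B cells (24.1%). For ISG+ CD8+ T cells, keeping all genes gave 0 (1.37%), and leaving out cells with over 2900 genes (1.59%) or the top doublet scores (1.86%) gave 2. All 20 gate profiles, a setting chosen after seeing the data, gave 0 for CD8+ against CD4+ (5.81%). The *H2-D1* to *H2-K1* difference in monocytes ranged from 0.78 to 1.07 against CD8+ and 0.80 to 0.99 against CD4+ T cells under other settings, also chosen after seeing the data. The cause of these shifts was not tested.

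Leaving out each library gave between 0 and 1 members called between CD8+ and CD4+ T cells (1.89% to 5.29% of all genes), 1 and 3 in NK cells (6.33% to 17.3%), 0 and 2 in B cells (16.3% to 21.7%), 1 and 6 in monocytes (30.1% to 42.7%), 0 and 1 in *Id2*+ (4.3% to 9.28%) and 0 and 1 in ISG+ CD8+ T cells (0.564% to 2.27%). The calls over all pairs of gates fell from 30 to between 10 and 18 of 100, and over all genes from 21.8% to between 15.1% and 19.5%.

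For members past the fold between libraries, the share of all genes past it is in parentheses. A fold of 1.5 gave 1 of 10 for anti-PD-L1 (3.41%) and 1 of 9 for PDOX (7.99%) in CD8+ T cells, and in CD4+ T cells 0 of 5 for anti-PD-L1 (4.32%), 1 of 7 for anti-OX40/CpG (10.7%) and 1 of 7 for PDOX (15.4%). For anti-OX40/CpG in CD8+ T cells, keeping all genes (13.9%), the other T gates (14.9%), TMM scaling (17.4%) and *Id2*- cells alone (12.5%) each gave 1 of 8 or 9. For PDOX in CD8+ T cells, keeping all genes gave 7 of 9 (39.5%), thinning 1 of 5 (23.2%), the other T gates 2 of 8 higher (24.7%) and 1 lower (21.1%), and *Id2*+ cells alone 2 of 7 (30%). In CD4+ T cells, thinning gave 1, 0 and 3 of 4 in the 3 treated libraries (13.3%, 22.8% and 30.9%), a minimum of 100 UMIs gave 4 of 8 for anti-PD-L1 (16.5%) and 8 of 10 for PDOX (31.6%), the other T gates 4 of 6 (14.2%) and TMM scaling 1 of 5 (8.64%) for anti-PD-L1, and *Id2*- cells alone 0 of 5 for anti-OX40/CpG (16.9%) and 3 of 5 for PDOX (18.8%). Of 660 values for 60 single ratios, 615 stayed within the counting interval, 41 moved and 4 reversed: *Tap2* in CD4+ T cells, at 0.898, 0.847 and 0.799 with thinning and at 0.885 in *Id2*+ cells of anti-PD-L1. The cause was not tested. The NK, B and monocyte gates were small, which may limit what could be detected.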
